A study of Schizosaccharomyces pombe with 7 samples.

Results

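The stretch 20 to 50 kb from the right end of chromosome II of fission yeast (Schizosaccharomyces pombe) was followed by the incorporation of newly made, FLAG-tagged histone H3. Its members were the 599 array probes, of 43993 in all, whose 2 file coordinates both lie in these 30 kb. On the reference ASM294v3 they span chrII:4489801-4519800. Probes are 60 bases long and start every 50 bases. The choice of members used position only, but it was made with earlier results of these data known.

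The arrays came from 4 genotypes: the double mutant fft3Δ clr3Δ (1 array), clr3Δ (1 array), fft3Δ (2 arrays) and wild type (3 arrays). All were grown at 30 °C in minimal medium with 8% glucose, given 15 mM hydroxyurea (HU), which stops DNA replication, for 4 h, and moved to 4% sucrose with HU for 2 h to induce H3-FLAG. Immunoprecipitated DNA (ChIP, Cy5) was hybridised beside whole-cell extract DNA (input, Cy3), and values are log2 ChIP over input with the median of the array set to 0. No label states whether replicate arrays stand for separate cultures, so p-values measure the spread between arrays, which may be technical. The fft3 and clr3 genes were not analysed here, so the deletions were not checked. Slide 1 held wild type 1 and fft3Δ 1, slide 2 wild type 2 and fft3Δ 2, and slide 3 wild type 3, clr3Δ and the double mutant.

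In cells that do not replicate, tagged H3 enters chromatin where old nucleosomes are exchanged for new ones, so a low ratio can mark slow exchange. The ratio here is to input DNA and not to total H3, so the density of nucleosomes was not taken into account. Whether replication had stopped fully was not checked. Heterochromatin, the compact and silenced chromatin found next to telomeres and around centromeres, carries little histone acetylation and exchanges its nucleosomes slowly. Clr3 is a histone deacetylase of the SHREC silencing complex, and Fft3 belongs to the Snf2 family of chromatin remodellers. Subtelomeres of fission yeast are silenced near the telomere and carry genes that are mostly used under stress or starvation.

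The following 3 stretches give sequence from places named in the results below: the innermost gene, the gap between the 2 stretches high in wild type, and the gene with the largest difference in fft3Δ. They are RefSeq sequence of ASM294v3, plus strand, 5′ to 3′, with runs of 6 or more A or T in capitals. The first is chrII:4489801-4490050, the end of the gal1 coding sequence, the second chrII:4499395-4499694, and the third chrII:4508450-4508749.
gal1 coding end: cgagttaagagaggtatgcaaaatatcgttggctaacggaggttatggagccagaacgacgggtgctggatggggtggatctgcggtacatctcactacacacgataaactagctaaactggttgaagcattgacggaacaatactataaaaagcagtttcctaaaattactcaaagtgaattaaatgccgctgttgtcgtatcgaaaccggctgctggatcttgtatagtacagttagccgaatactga
SPBPB2B2.16C to SPNCRNA.448: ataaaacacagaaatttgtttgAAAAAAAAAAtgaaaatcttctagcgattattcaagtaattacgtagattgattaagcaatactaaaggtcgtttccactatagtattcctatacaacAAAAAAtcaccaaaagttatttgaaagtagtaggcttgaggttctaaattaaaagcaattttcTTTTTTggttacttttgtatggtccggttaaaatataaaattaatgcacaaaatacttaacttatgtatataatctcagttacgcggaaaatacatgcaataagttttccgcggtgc
SPBCPT2R1.02 start: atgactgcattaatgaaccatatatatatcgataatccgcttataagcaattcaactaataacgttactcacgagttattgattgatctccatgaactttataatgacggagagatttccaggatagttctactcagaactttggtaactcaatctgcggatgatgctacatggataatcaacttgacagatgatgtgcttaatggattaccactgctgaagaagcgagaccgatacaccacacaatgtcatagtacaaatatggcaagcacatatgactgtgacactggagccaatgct
The first stretch holds no such run and occurs once in the reference. The second has 28.3% GC and 3 runs, and it occurs 3 times. The third also occurs 3 times and holds no run. Of 100 windows of 300 bases across the region, 70 held a run of 6 A or T (AAAAAA or TTTTTT), which is 70.0%, against 54.2% of 1333 windows in a stretch of the chromosome arm. The arm stretch was not matched for GC content, and whether the ratio goes with such runs was not tested.

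Most probes do not read this chromosome end alone. The central 50 bases of 522 of the 599 probes (87.1%) occur more than once in the reference, 405 of them also at the left end of chromosome II, 408 at the left end of chromosome I and 282 at its right end. Alignments longer than 4 kb to these ends had 96.7% to 100% identity. All 40 probes of the innermost 2 kb were found once, and 37 more lay scattered over the rest. Apart from those 37, a probe outside the innermost 2 kb therefore reads a mixture of copies, up to 6 of them. Only exact matches were counted. The alignments to other ends reach in to 47.68 kb from the right end, so the 37 may also read near-identical copies there. The copies lay mostly at the chromosome ends named above, and 9 probes also had copies elsewhere. The input signal followed the same course along the region on every array, and lay highest 21 to 23 kb from the end. Over the region the centred input averaged 0.38 in the double mutant, 0.20 in clr3Δ, 0.19 ± 0.11 in fft3Δ (SD, n = 2) and 0.23 ± 0.16 in wild type (SD, n = 3). No window of the region differed in input in any comparison at a limma adjusted p of 0.05, and 0 or 1 of the 30 windows had an unadjusted p under 0.05.

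**Figure D1:**
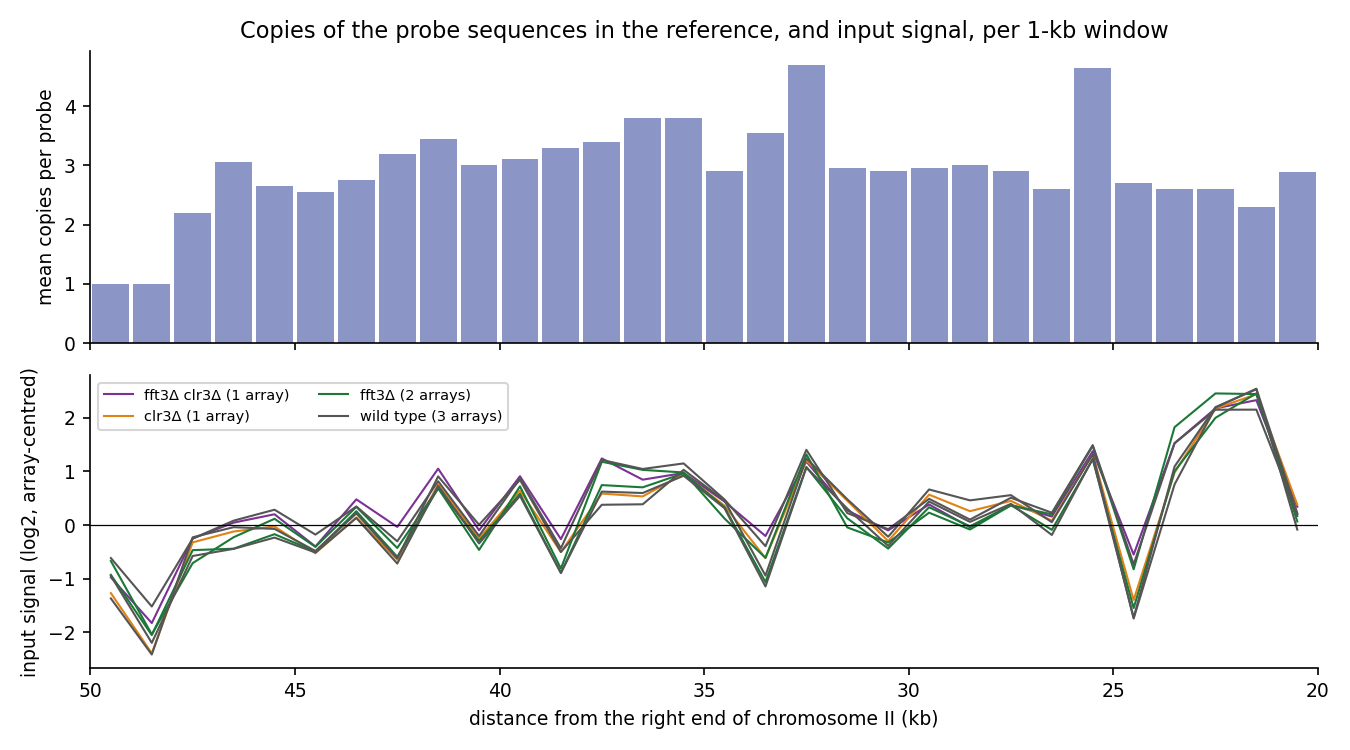
Mean number of copies of the probes in the reference (top, bars) and log2 input signal centred on the array median (bottom, 1 line per array) for the 30 windows of 1 kb. The innermost 2 windows have 1 copy per probe, and the input lines of the 7 arrays run together.

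In wild type the ratio was low over most of the region, with 1 sharp exception. Averaged over all members the level was −0.43, −0.68 and −0.42 on the 3 arrays. Of the 30 windows of 1 kb, 25 lay below 0 on every wild-type array and 2 above 0 on every one. The lowest windows were those 20 to 21 kb (−0.99), 45 to 46 kb (−0.91) and 44 to 45 kb (−0.87) from the end. The highest were those 41 to 42 kb (0.51), 39 to 40 kb (0.33) and 42 to 43 kb (0.16) from the end, next to each other or nearly so. The profiles of the wild-type arrays over the 30 windows were alike, with Pearson correlations of 0.845 to 0.917, as a description of windows that share fragments and libraries.

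**Figure D2:**
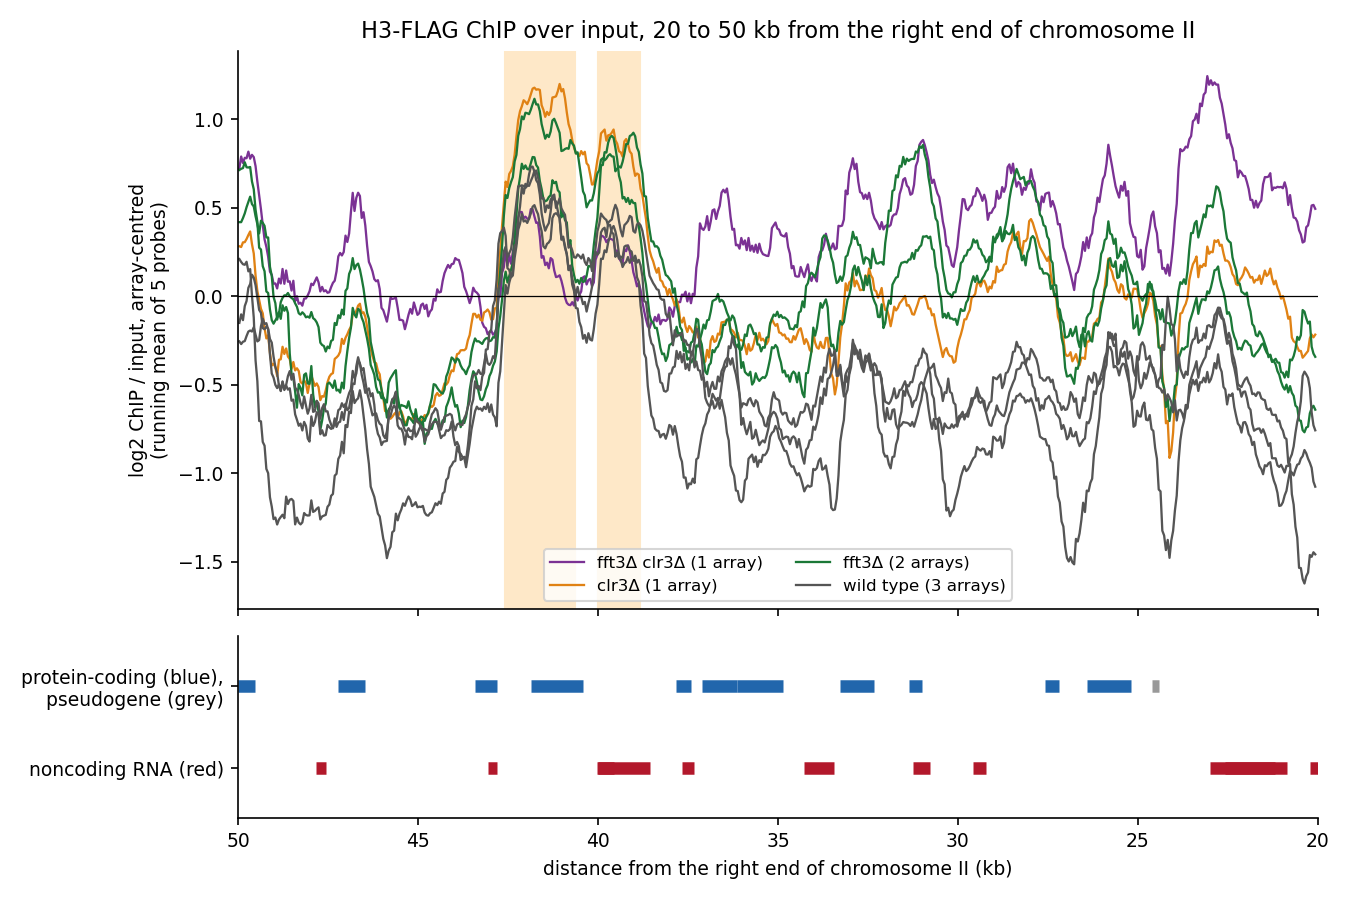
Running mean over 5 probes of log2 ChIP over input against the distance from the right end, 1 line per array, with the measured genes below. Shading marks the 2 stretches high on every wild-type array. Over both together the double mutant averages below each wild-type array, while it lies above wild type over most of the rest.

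The high level sat in 2 stretches, taken as runs of at least 10 probes whose 5-probe running mean was above 0 on each wild-type array. The first holds 39 probes over chrII:4497201-4499160 and lies within and beside SPBPB2B2.16C, annotated as a membrane transporter of the MFS family. The second holds 23 probes over chrII:4499801-4500960 and lies on the noncoding RNA genes SPNCRNA.448 and SPNCRNA.6635, which overlap. No run of that length was below −1 on each wild-type array.

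Without fft3 the mean ratio was higher in every window of the region, but no single window passed the test. The region mean was −0.062 and 0.081 on the fft3Δ arrays, against −0.43, −0.68 and −0.42 on the wild-type arrays. The groups did not overlap, and the mean difference was 0.52 ± 0.12 (SE), a 1.44-fold higher ratio. An exact two-sided permutation test gave p = 0.1, the smallest that 10 splits of 5 arrays allow. Within slide 1 the difference was 0.37 and within slide 2 it was 0.77. It was larger on slide 2 in 27 of the 30 windows, for which no share over all windows is given here. All 30 windows had a positive difference, with a median of 0.50 against −0.0033 over all 2201 windows. Both fft3Δ arrays lay above all 3 wild-type arrays in 26 of the 30 windows, against 8.81% of all windows. None of the 30 passed limma at an adjusted p of 0.05, as 0% of all windows did, while 21 had an unadjusted p under 0.05, against 70 of the 2201 windows. Without fft3Δ replicate 2 it was 13 of the 30, against 111 of the 2201.

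The difference in fft3Δ was uneven along the region. It was largest 31 to 32 kb from the end (1.06 ± 0.17, limma adjusted p = 0.16), 28 to 29 kb (0.94) and 29 to 30 kb (0.88). The arrays gave 0.15 and 0.70 in fft3Δ for the window 31 to 32 kb from the end, against −0.71, −0.64 and −0.56 in wild type. It was smallest 42 to 43 kb (0.16), 43 to 44 kb (0.19) and 44 to 45 kb (0.25) from the end. The 40 probes of the innermost 2 kb, which read this end alone, averaged 0.038 and 0.16 in fft3Δ, against −0.43, −0.82 and −0.31 in wild type. The groups did not overlap there, with a difference of 0.62. The difference was 0.38 over the other 37 probes that occur once, and 0.51 over all 77. Those 37 averaged −0.32 and −0.18 in fft3Δ, against −0.51, −0.88 and −0.51 in wild type, without overlap.

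Without clr3 the ratio was also higher along the whole region, again with no single window past the test. The region mean was −0.0050 on the clr3Δ array, against −0.43, −0.68 and −0.42 on the wild-type arrays. The difference was 0.51 ± 0.16 (SE, from the spread of the wild-type and fft3Δ arrays), a 1.42-fold higher ratio, and 0.42 within slide 3. The clr3Δ array lay above all wild-type arrays in 30 of 30 windows, against 22.1% of all windows. None of the 30 passed limma at an adjusted p of 0.05, against 1.32% of all windows called higher, and 18 had an unadjusted p under 0.05, against 115 of the 2201 windows. The largest differences lay 21 to 22 kb (0.88, adjusted p = 0.061), 27 to 28 kb (0.79) and 28 to 29 kb (0.78) from the end. The smallest lay 45 to 46 kb (0.23), 24 to 25 kb (0.27) and 49 to 50 kb (0.29) from the end. The shape of the wild-type profile was kept, with a correlation of 0.91 between clr3Δ and the wild-type mean over the 30 windows. Over the 40 probes of the innermost 2 kb clr3Δ had −0.19, against −0.43, −0.82 and −0.31 in wild type, a difference of 0.33. Over all 77 probes found once the difference was 0.38 ± 0.23 (SE).

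The double mutant had the highest level in most of the region. Its region mean was 0.34, against −0.43, −0.68 and −0.42 on the wild-type arrays, a difference of 0.86 ± 0.16 (SE) or 1.81-fold, and 0.77 within slide 3. It lay above all wild-type arrays in 25 of the 30 windows, against 23.3% of all windows, and below all of them in 1, against 36.1%. It was the highest of the 7 arrays in 24 windows, a description for which no share over all windows is given here. By limma, 18 of the 30 windows were higher at an adjusted p of 0.05 and none was lower, against 3.5% of all windows called higher and 0.682% called lower. The differences of the 18 ranged between 0.79 and 1.48. They made up 15 of the 17 windows 20 to 37 kb from the end, 3 of the 6 windows 44 to 50 kb from the end, and none of the 7 windows between. The largest lay 20 to 21 kb (1.48 ± 0.23, adjusted p = 0.011), 23 to 24 kb (1.41, adjusted p = 0.0076) and 21 to 22 kb (1.38, adjusted p = 0.0031) from the end. The window 23 to 24 kb from the end, which holds no annotated gene, had 0.94 in the double mutant, 0.037 in clr3Δ, 0.26 and −0.17 in fft3Δ, and −0.30, −0.57 and −0.56 in wild type. The window 36 to 37 kb from the end, over SPBPB2B2.18 and SPBPB2B2.19C, had 0.45 in the double mutant, −0.20 in clr3Δ, −0.25 and −0.13 in fft3Δ, and −0.48, −0.79 and −0.46 in wild type. In both windows every mutant array lay above every wild-type array, and the double mutant was the highest. Over the 40 probes of the innermost 2 kb the double mutant had 0.29, a difference from wild type of 0.81. Over all 77 probes found once the difference was 0.85 ± 0.23 (SE). The lowest differences lay 41 to 42 kb (−0.23, adjusted p = 0.70), 40 to 41 kb (−0.056) and 39 to 40 kb (−0.049) from the end. With slide as a block, 8 of the 30 windows were called higher and none lower, against 3.63% of all windows called higher and 0.227% called lower.

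**Figure D3:**
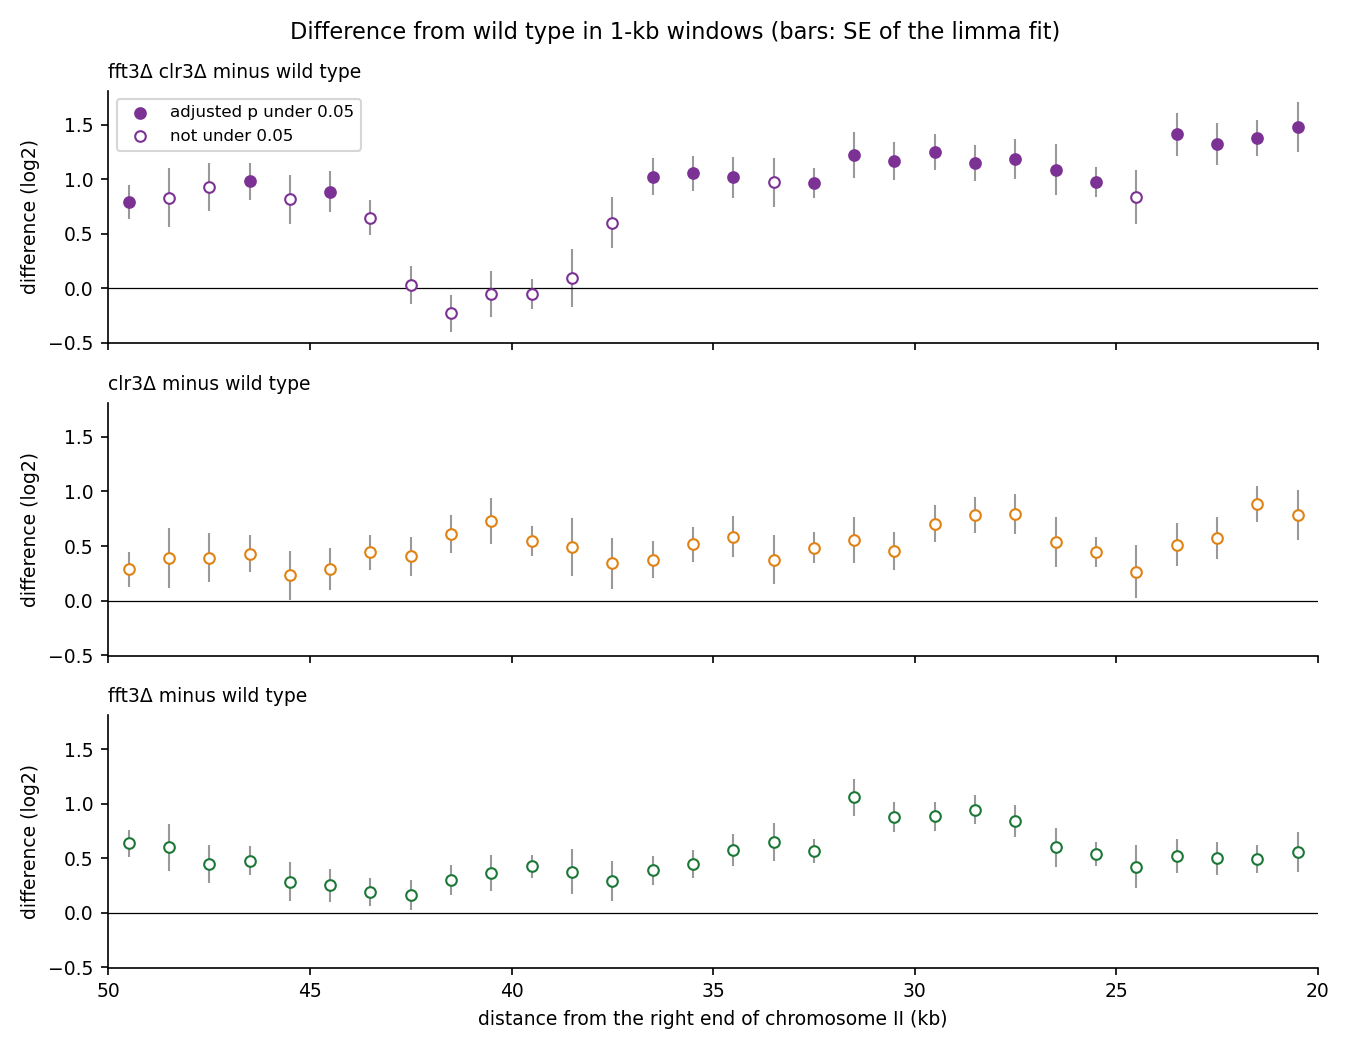
Difference from wild type of each 1-kb window against the distance from the right end, with bars of 1 SE from limma, for the double mutant, clr3Δ and fft3Δ from top to bottom. Filled points had an adjusted p under 0.05, and all 18 of them are in the double mutant.

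In the double mutant the stretches high in wild type did not stand out from the rest of the region. They were chosen on the wild-type values, so their differences from wild type are a description. Averaged over their 62 probes the level was 0.25 in the double mutant, 0.96 in clr3Δ, 0.58 and 0.87 in fft3Δ, and 0.30, 0.37 and 0.47 in wild type. Both single mutants lay above all wild-type arrays there, and the double mutant lay below all of them. In the first stretch the double mutant had 0.247, against 0.331, 0.404 and 0.504 in wild type. In the second it had 0.2519, against 0.2528, 0.310 and 0.406, so there it was level with the lowest wild-type array. Over the other 537 probes the level was 0.36 in the double mutant, −0.12 in clr3Δ, −0.14 and −0.0099 in fft3Δ, and −0.52, −0.81 and −0.53 in wild type. The high stretches stood above the rest by 1.08 in clr3Δ, 0.71 and 0.88 in fft3Δ, and 0.82, 1.17 and 1.00 in wild type, whereas in the double mutant they stood 0.11 below it. The profile of the double mutant over the 30 windows had a correlation of −0.011 with the wild-type mean.

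The levels of the double mutant were also set against those of clr3Δ, on 1 array each, with errors and p-values from the spread of the fft3Δ and wild-type arrays. The region mean was higher in the double mutant by 0.35 ± 0.19 (SE). That error was 0.10 without wild type 2 and 0.21 without any other single fft3Δ or wild-type array. Of the 30 windows, 25 had a positive difference, with a median over the 30 of 0.53 against −0.024 over all 2201 windows. The highest differences lay 23 to 24 kb (0.90, adjusted p = 0.44), 22 to 23 kb (0.75) and 30 to 31 kb (0.71) from the end. The 5 windows with a negative difference were those 38 to 43 kb from the end, and the lowest lay 41 to 42 kb (−0.84, adjusted p = 0.44), 40 to 41 kb (−0.79) and 39 to 40 kb (−0.59) from the end. The window 41 to 42 kb from the end had 0.28 in the double mutant against 1.12 in clr3Δ. No window of the region passed limma in that comparison (17 had an unadjusted p under 0.05, against 153 of the 2201 windows), where 0% of all windows were called higher and 0.0454% lower. The interaction is the difference between double mutant and clr3Δ minus the difference between fft3Δ and wild type. Over the region mean it was −0.17 ± 0.23 (SE), which is smaller than its error. It was lowest 40 to 41 kb (−1.15), 41 to 42 kb (−1.14) and 39 to 40 kb (−1.019) from the end, and highest 23 to 24 kb (0.38), 44 to 45 kb (0.35) and 45 to 46 kb (0.30) from the end. No window of the region passed limma for the interaction (4 had an unadjusted p under 0.05, against 128 of the 2201 windows). The array of the double mutant was also flatter along the arm. The SD over arm windows was 0.27 in the double mutant, 0.35 in clr3Δ, 0.41 and 0.40 in fft3Δ, and 0.33, 0.42 and 0.34 in wild type. With the arrays scaled to equal spread, an alternative chosen after seeing the data, the high stretches averaged 0.28 in the double mutant, 1.018 in clr3Δ, 0.51 and 0.79 in fft3Δ, and 0.35, 0.32 and 0.48 in wild type. With quantile scaling they averaged 0.29 in the double mutant and 0.33, 0.33 and 0.50 in wild type. The double mutant stayed the lowest array in both, by a smaller margin, but the difference of SPNCRNA.6635 from wild type, −0.015 with centring alone, was 0.031 with equal spread and 0.041 with quantile scaling.

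Of 25 annotated genes that overlap the region, 23 had at least 2 probes: 11 protein-coding genes, 11 noncoding RNA genes and 1 pseudogene. In fft3Δ none was called by limma (17 had an unadjusted p under 0.05, against 66 of the 2177 genes), as 0% of all 2177 genes. In clr3Δ none was called (13 had an unadjusted p under 0.05, against 95 of the 2177 genes), against 1.42% of all genes called higher. In the double mutant 14 were higher and none was lower, against 2.85% of all genes called higher and 1.1% called lower. The median difference of the double mutant from wild type was 0.99 over the 11 protein-coding genes and 0.94 over the 11 noncoding RNA genes, against −0.046 over all genes tested. Genes on opposite strands that overlap share probes, so SPNCRNA.6640 and SPNCRNA.6641, or SPBCPT2R1.02 and SPNCRNA.6638, are not separate evidence.

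The 8 protein-coding genes called in the double mutant were gal1, SPBPB2B2.14C, SPBPB2B2.18, SPBPB2B2.19C, SPBCPT2R1.01C, SPBCPT2R1.02, SPBCPT2R1.03 and SPBCPT2R1.04C, of which all but gal1 are annotated as uncharacterized or only by a transmembrane helix (SPBPB2B2.19C). The pseudogene SPBCPT2R1.05C (difference 1.07) and the noncoding RNA genes SPNCRNA.6638, SPNCRNA.6639, SPNCRNA.6640, SPNCRNA.6641 and SPNCRNA.6642 were also called. The gene with the largest difference was SPNCRNA.6642, with 0.59 in the double mutant, −0.13 in clr3Δ, −0.24 and −0.54 in fft3Δ, and −0.70, −1.30 and −1.07 in wild type. Its difference in the double mutant was 1.61 ± 0.23 (SE, limma adjusted p = 0.0040) on 4 probes.

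The galactokinase gene gal1, which starts the breakdown of galactose, was the member of the galactose genes measured, by 9 probes at its end that occur once in the reference. It had 0.78 in the double mutant, 0.32 in clr3Δ, 0.50 and 0.73 in fft3Δ, and −0.23, 0.17 and −0.0077 in wild type. The mutant arrays all lay above the wild-type arrays. The difference was 0.80 ± 0.18 in the double mutant (limma adjusted p = 0.049), 0.34 in clr3Δ (adjusted p = 0.99) and 0.63 in fft3Δ (adjusted p = 0.47).

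SPBCPT2R1.02, an uncharacterized gene, had 0.70 in the double mutant, −0.080 in clr3Δ, 0.24 and 0.80 in fft3Δ, and −0.71, −0.42 and −0.59 in wild type. Its difference was the largest of the 23 genes in fft3Δ, at 1.09 (limma adjusted p = 0.15), against 1.28 in the double mutant (adjusted p = 0.011) and 0.49 in clr3Δ (adjusted p = 0.99). Every mutant array lay above every wild-type array. The noncoding RNA genes SPNCRNA.6638, which overlaps it, and SPNCRNA.6639 came next in fft3Δ, with differences of 1.04 and 0.85. In clr3Δ the largest differences were 0.90 for SPNCRNA.6642 (limma adjusted p = 0.19), 0.80 for SPNCRNA.6641 (adjusted p = 0.069) and 0.77 for SPBCPT2R1.03 (adjusted p = 0.16).

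SPBPB2B2.16C, the MFS transporter gene, had 0.14 in the double mutant, 1.04 in clr3Δ, 0.46 and 0.91 in fft3Δ, and 0.26, 0.35 and 0.46 in wild type. The double mutant was the lowest array and clr3Δ the highest. SPNCRNA.448 had 0.18 in the double mutant, 0.77 in clr3Δ, 0.56 and 0.76 in fft3Δ, and 0.19, 0.19 and 0.38 in wild type. The other members not called in the double mutant were SPBPB2B2.15, with a Vel1p domain (difference 0.31), ftm7, with a transmembrane helix (0.51), and the noncoding RNA genes SPNCRNA.6633, SPNCRNA.6634, SPNCRNA.6635, SPNCRNA.6636 and SPNCRNA.6637.

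**Figure D4:**
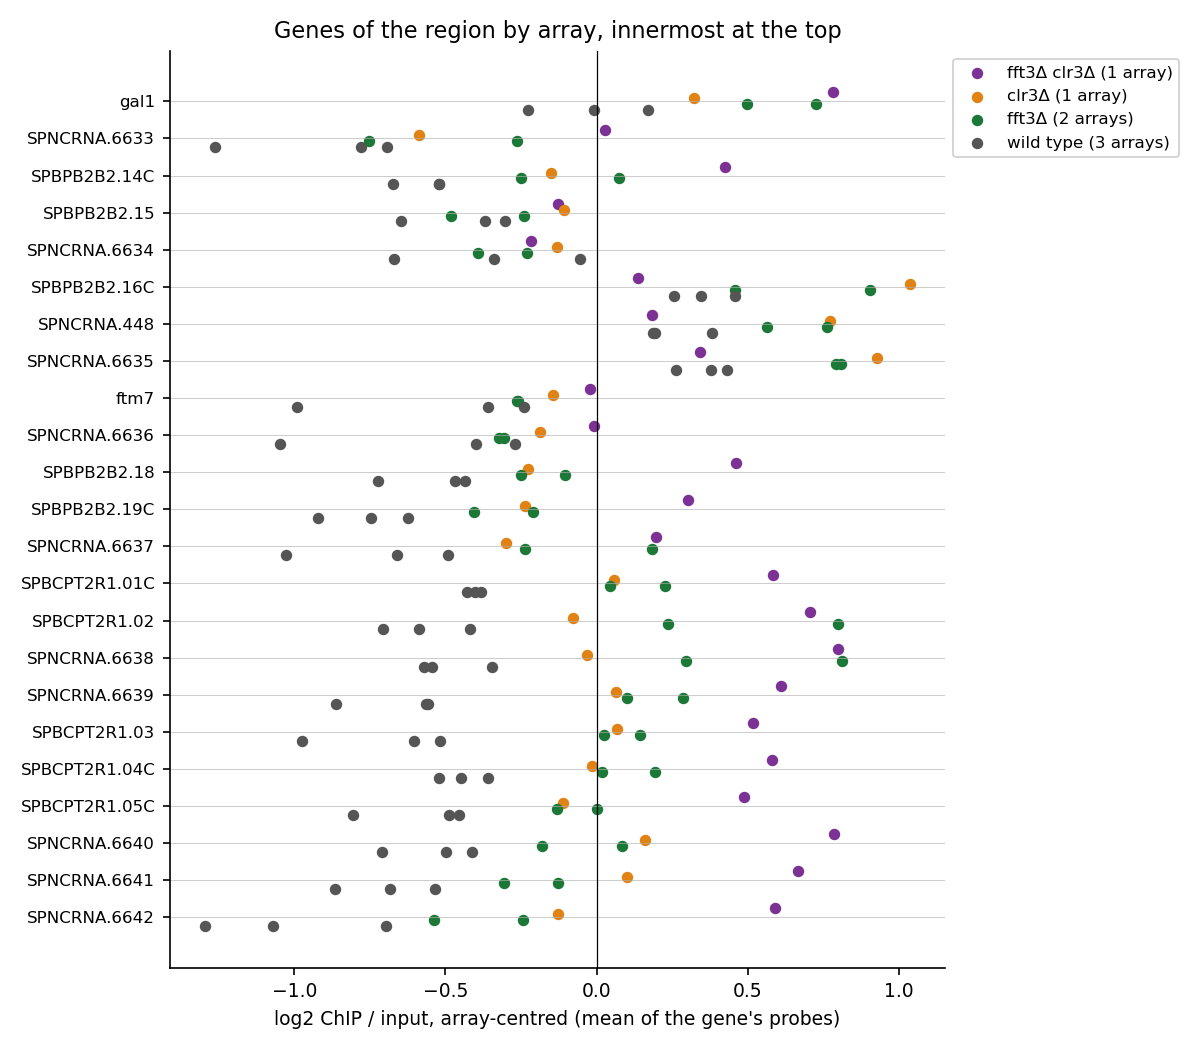
Level of the 23 genes on each array, 1 row per gene with the innermost at the top; each point is the mean of the gene's probes on 1 array. In SPBPB2B2.16C and SPNCRNA.448 the double mutant lies at or below the wild-type arrays, while for the 14 called genes it lies above them.

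The region was set against other silenced stretches on the same arrays. In wild type it was less depleted, at −0.51 ± 0.15 (SD, n = 3), than the distal 20 kb (−0.82 ± 0.079) and the outer repeats of centromere 2 (−1.40 ± 0.085). The difference from wild type in the region exceeded that in the distal 20 kb by 0.15 ± 0.20 in fft3Δ (SE; exact permutation p = 0.6; −0.063 within slide 1 and 0.53 within slide 2). The same quantity was −0.21 ± 0.25 in clr3Δ and −0.24 ± 0.25 in the double mutant. None of the 3 was larger than its error. Against the outer repeats it was larger by 0.35 ± 0.19 in fft3Δ (exact permutation p = 0.1, the smallest possible; 0.016 within slide 1 and 0.68 within slide 2). This quantity was −1.14 ± 0.24 in the double mutant and −0.70 ± 0.24 in clr3Δ, so in both the difference was larger at the outer repeats. Genes of the distal 20 kb were called higher in the double mutant in 14 of 25 cases and in clr3Δ in 6 of 25. Of 35 genes of the outer repeats, 34 were called in the double mutant and 25 in clr3Δ. In the region these counts were 14 and 0 of 23. Over all 2177 genes, 2.85% were called higher in the double mutant and 1.42% in clr3Δ. In fft3Δ no gene of the 3 sets was called, as 0% of all genes.

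Windows of the arm with a like level in wild type were set beside the region, as a description. The 20 windows of the region with a wild-type mean between −1 and −0.5 averaged 0.31 in the double mutant, −0.21 in clr3Δ, −0.16 in fft3Δ and −0.72 in wild type. The 44 arm windows in that range averaged −0.48 in the double mutant, −0.60 in clr3Δ, −0.69 in fft3Δ and −0.64 in wild type. The highest of these arm windows in the double mutant was −0.12, and the lowest of these windows of the region was −0.094, so the 2 sets did not overlap in this range. They did overlap in the others. The 6 windows of the region between −0.5 and 0 in wild type averaged 0.58 in the double mutant (−0.094 to 0.94) and −0.35 in wild type, beside 874 arm windows with −0.19 in the double mutant (−1.12 to 0.39) and −0.19 in wild type. The 4 windows above 0 in wild type averaged 0.20 in the double mutant (0.039 to 0.28), 0.85 in clr3Δ and 0.27 in wild type. The 920 arm windows between 0 and 0.6 in wild type averaged 0.11 in the double mutant (−0.52 to 0.83), 0.18 in clr3Δ and 0.21 in wild type. The 187 arm windows with a like level in clr3Δ, between 0.5 and 1.2, averaged 0.37 in the double mutant (−0.53 to 0.97), 0.71 in clr3Δ and 0.69 in wild type. These 187 arm windows, chosen on the clr3Δ array, were thus also lower in the double mutant on average, and their range holds that of the 4 windows. Their wild-type level of 0.69 was above the 0.27 of the 4 windows, so the sets were not alike in wild type.

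**Figure D5:**
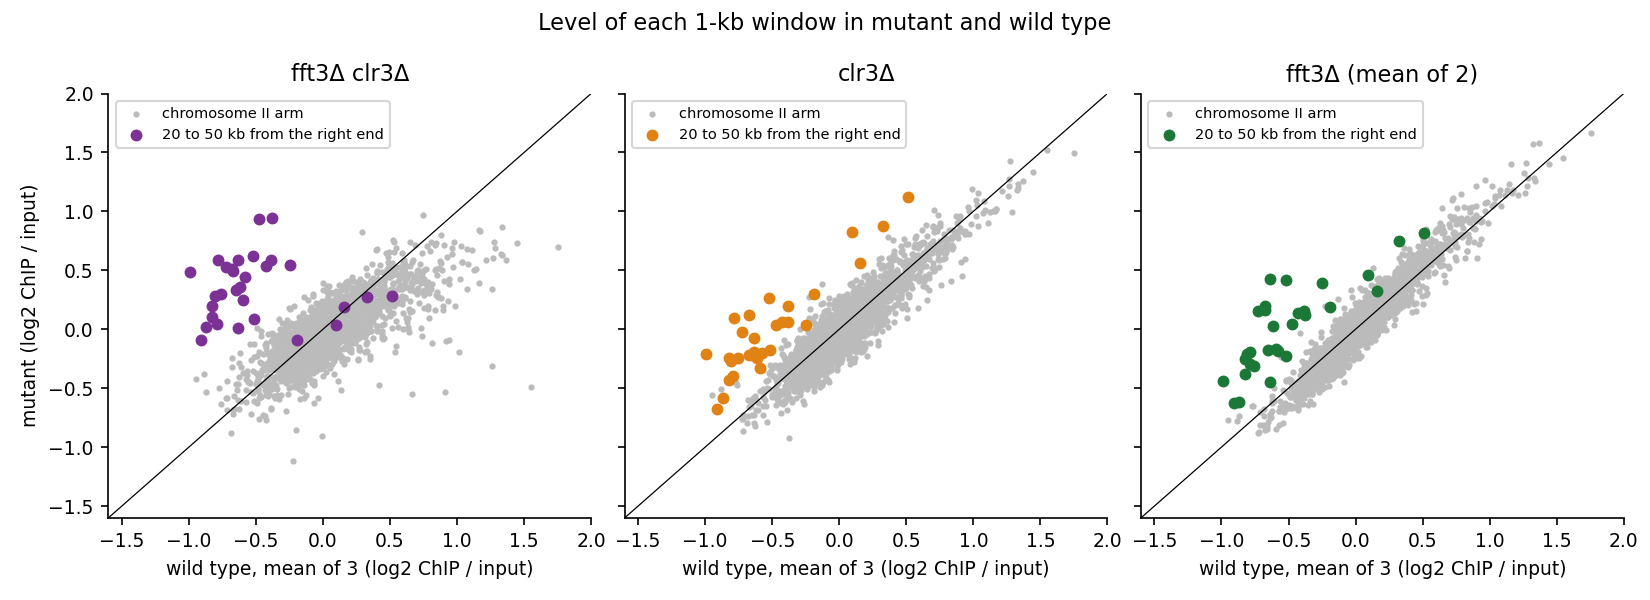
Level of each 1-kb window in the double mutant, clr3Δ and fft3Δ (vertical) against the wild-type mean (horizontal), both log2 ChIP over input, with the line of equal level. Coloured points, the 30 windows of the region, lie above the line in clr3Δ and fft3Δ, and grey points are windows of the chromosome II arm.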

How the data were processed

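In all, 7 Agilent tiling arrays of H3-FLAG ChIP with a red and a green channel were used. The deposited scanner files hold intensity values from Agilent Feature Extraction, in version 10.7.3.1 on slide 1 but 12.0.3.1 on the other slides, background-subtracted and dye-normalized, per the file headers. Other deposited columns were flags for marked spots, saturation and signal well above background. The deposited series table holds log2 values, which matched log2 of red over green processed intensity within 4.9e-08 and so are not centred or scaled. Its medians by column were −0.043 for the double mutant, −0.029 for clr3Δ, −0.042 and 0.0017 for fft3Δ, and −0.037, 0.018 and −0.0014 for wild type. Red was ChIP on every array, with no dye swap. The probe names follow a genome build not given in the sources used here. File coordinates in the region exceed ASM294v3 by 1800 bases, the offset at which input followed GC content best (correlation 0.67, against at most 0.31 more than 100 bases away).

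Log2 ratios were centred on each array's median, without marked spots. These numbered 929 on the array of the double mutant and 4 to 323 on the others. On each array 99.4% to 99.9% of probes were well above background. The number of arrays limits the precision. Probes were averaged in windows of 1 kb (at least 10 probes) and genes (at least 2 probes). The outermost window also holds 1 probe that crosses the limit. All 2201 windows and 2177 genes were fitted, windows and genes apart, by limma (version 3.58.1, R 4.3.3) to genotype means with Benjamini-Hochberg adjustment. The window fit was also run on simulated arrays drawn independently, with a change in fft3Δ only. That run had no slide effect, so it cannot show how the fit fares where arrays of a slide deviate together. Since clr3Δ and the double mutant have 1 array each, their spread was taken to equal that of the replicated genotypes. Copies were counted for the central 50 bases of each probe and by blastn 2.17.0. Sheared fragments of 500 to 1000 bases, per the labels' protocols, are shared by neighbouring windows. Every protein-coding gene and pseudogene of the region is named, noncoding RNA genes where called or extreme, and the 3 highest and 3 lowest windows of each comparison. Members and lists were chosen with earlier results of these data known. Alternatives were other background correction, scaling, spot filters, slide as a block, window width and leaving out arrays.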

Additional observations from a re-analysis of the deposited data

Results flagged for a closer look

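In 4 windows and 3 genes of the region, the level was higher in fft3Δ than in wild type on both slides, yet lower in the double mutant than in clr3Δ. The double mutant minus clr3Δ was −0.84 in the window 41 to 42 kb from the end, −0.79 at 40 to 41 kb, −0.59 at 39 to 40 kb and −0.40 at 38 to 39 kb. It was −0.90 for SPBPB2B2.16C, −0.59 for SPNCRNA.448 and −0.59 for SPNCRNA.6635, and these genes lie in those windows. The interaction did not pass limma: the lowest adjusted p over the 30 windows was 0.63, and it was 0.44 for each of the 3 genes. The comparison with clr3 absent rests on 1 array of each genotype.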

How the results depend on the processing

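Deviations of the wild-type and fft3Δ arrays on the same slide had a correlation over all windows of 0.64 on slide 1 and 0.40 on slide 2. The deviations of the 2 fft3Δ arrays from their mean mirror each other, so these 2 values are not independent. They are only a hint that arrays of a slide deviate together. With slide as a block, the region mean differed from wild type by 0.77 ± 0.28 in the double mutant, 0.42 ± 0.28 in clr3Δ and 0.57 ± 0.20 in fft3Δ. These errors (SE) rest on 1 residual degree of freedom and are larger than those without the block. The windows called higher were then 8, 1 and 0, against 80, 48 and 0 of all 2201 windows. Genes called higher in clr3Δ were 2, against 42 of all 2177 genes. Within slides the fft3Δ difference was 0.37 and 0.77, and its excess over the outer repeats 0.016 and 0.68; its excess over the distal 20 kb was 0.53 on slide 2. Window and gene counts within single slides were not run, since they leave no residual degrees of freedom.

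For fft3Δ, windows called were 4 with quantile scaling, 3 with slide as a random block and 2 of 15 with 2-kb windows; these were all the calls over the array, 4 and 3 of 2201 windows and 2 of 1101. Genes called were 3 with the random block, again all the calls over the 2177 genes. For clr3Δ, windows called were 2 with normexp, 2 with equal spread, 2 with quantile scaling, 1 with the random block and 1 with 2-kb windows, against 38, 30, 34 and 47 of all 2201 windows and 21 of 1101 in that order. Genes called were 3 with equal spread, 4 with quantile scaling and 4 with the random block, against 31, 34 and 49 of all 2177 genes. For the double mutant, probes found once left 3 windows with 0 called and 6 genes with 4 called higher. Over the array, 3 of 2008 windows and 12 of 2083 genes were then called higher. The same probes turned the difference of the double mutant between the region and the distal 20 kb to 0.061. Quantile scaling gave an interaction of −0.024, against −0.17 as reported and −0.24 to −0.087 with single arrays left out, and a clr3Δ difference from the outer repeats of −0.48.

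Leaving out single arrays gave 0 to 4 windows and 0 to 4 genes called in fft3Δ, 0 to 1 windows and 0 to 5 genes in clr3Δ, and an excess of fft3Δ over the outer repeats between 0.12 and 0.58. The 4 windows and 4 genes of fft3Δ came without wild type 1, where 9 of 2201 windows and 8 of 2177 genes were called over the array. The 5 genes of clr3Δ came without wild type 2, where 51 of 2177 genes were called higher. The 1 window of clr3Δ came without wild type 1 or 2, where 46 or 38 of 2201 windows were called higher. Of the 14 genes called in the double mutant, 12 stayed called under every other setting run on all probes. The high stretches in the double mutant minus clr3Δ gave −0.87 with normexp, chosen after seeing the data, against −0.71. SPNCRNA.6635 in the double mutant turned to 0.0028 with normexp, 0.031 with equal spread and 0.041 with quantile scaling, and ranged between −0.062 and 0.022 when single arrays were left out. SPNCRNA.6634 then ranged between −0.020 and 0.29 in the double mutant and between −0.11 and 0.19 in fft3Δ, and SPBPB2B2.15 between −0.044 and 0.20 in fft3Δ. The cause was not tested.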
